A study of Mus musculus with 8 samples.

Results

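A stretch of mouse chromosome 12 that holds 398 of the 136069 CpG sites in the deposited methylation table was examined in 3 TVI lung metastases, 3 MFP lung metastases and 2 MFP primary tumors of the 4T1 model. The sites are all those inside a 50-kb window of deposited coordinates, the first at position 8776021 and the last at 8821760, which was labelled as Sdc1 with the sequence after it. The window was chosen by methylation values of these same samples, which were lowest in primary tumors, higher in MFP metastases and highest in TVI metastases, with a pair of adjacent regions standing out. Its levels and its order of groups are therefore given as a description, with no test. 4T1 is a mammary carcinoma cell line that arose in a BALB/c mouse, and per the labels every sample is 4T1 material of the BALB/c strain, from a mammary tumor or from lung metastases. The marks MFP and TVI are not spelled out in the labels and are used here as they stand, and no primary tumor carries the TVI mark, so TVI metastases were compared with primary tumors across organ and mark together, with MFP metastases within the lung, and MFP metastases with primary tumors within the MFP mark. The labels name no other treatment or allele, and they do not state whether replicates are different mice, so the spread between replicates may be technical.

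Sdc1 encodes syndecan-1, also called CD138, a transmembrane core protein that carries heparan sulfate chains on the surface of epithelial cells and plasma cells. Through these chains it binds extracellular matrix and growth factors and acts as a co-receptor, and its outer domain can be shed by proteases. In the mouse mammary gland it is known as a gene needed for efficient tumor formation driven by Wnt1. DNA methylation in mammals sits mainly on the cytosine of CG dinucleotides. Dense clusters of CG at promoters are usually free of it, while the bodies of genes and the DNA between genes usually carry it.

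The promoter of Sdc1 is shown because its CG positions were used to look for the gene in the deposited coordinates, and that of Rhob, a small GTPase gene that lies before Sdc1 on the same chromosome, because it was the nearest promoter that could be matched. Both are RefSeq sequences of build GRCm38.p6, read 5′ to 3′ on the strand of the gene, Sdc1 at chr12:8771146-8771445 on the plus strand and Rhob at chr12:8499960-8500259 on the minus strand. Capitals mark every CG in Sdc1, and in Rhob those CG that coincided with a deposited site.
Sdc1: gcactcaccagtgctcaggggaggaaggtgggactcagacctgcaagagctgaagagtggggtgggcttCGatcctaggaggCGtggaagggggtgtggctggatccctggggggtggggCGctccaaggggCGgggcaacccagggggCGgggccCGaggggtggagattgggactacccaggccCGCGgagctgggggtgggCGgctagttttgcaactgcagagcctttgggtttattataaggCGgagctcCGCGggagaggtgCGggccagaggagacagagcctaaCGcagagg
Rhob: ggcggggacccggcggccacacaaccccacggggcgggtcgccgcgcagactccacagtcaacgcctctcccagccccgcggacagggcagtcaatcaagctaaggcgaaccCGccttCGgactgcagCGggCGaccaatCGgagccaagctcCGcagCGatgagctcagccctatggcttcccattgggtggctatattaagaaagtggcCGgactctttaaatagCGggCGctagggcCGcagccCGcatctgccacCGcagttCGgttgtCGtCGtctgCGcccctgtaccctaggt
The Sdc1 promoter holds 14 CG, against a median of 7 over the 32851 mouse promoter sequences of the same length, and 36.3% of those promoters hold at least as many. The letters GGGCGG, a GC box, occur 3 times in it when both strands are searched. At least 1 GC box is found in 35.7% of all promoters, and at least 3 in 10.7%.

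The deposited coordinates did not match the build named in the submitters' processing notes, mm10 (GRCm38). Where at least 8 deposited sites fell inside a promoter and matched its CG positions at a single offset, 273 promoters could be matched, and 248 of them lay more than 1 bp from their GRCm38.p6 position. On chromosome 7, 557 of 3166 sites lay beyond the last gene end of GRCm38.p6. Rhob matched at 17 of 17 sites with an offset of 6807 bp, the sites running from 8506783 to 8506953. Elsewhere on chromosome 12 the offset was not the same, at 1100988 bp for Gm36634 and Eif2s1 and 1340951 bp for Eif2b2 and Fos. No deposited site could be matched with the Sdc1 promoter itself. If the offset of Rhob also holds at Sdc1, which is an assumption, the promoter falls in a gap of 919 bp without sites, between positions 8777886 and 8778805. It would then begin 67 bp after the last site before the gap and end 553 bp before the first site after it, and the 22321-bp RefSeq gene would run from that gap through the first part of the window. RefSeq lists the genes in this stretch in the order Rhob, Slc7a15, Pum2, Gm4755, Sdc1, Gm33418, Laptm4a and Matn3. All positions below are as deposited, and a place within Sdc1 is given only under that assumption.

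Each value is a beta value, the share of methylated calls at a site, given here in percent, and differences are in percentage points. Read counts were not given, so the depth behind a value is unknown. Each sample was a bulk DNA sample, in which more methylated cells and more methylation per cell cannot be told apart. The part that other cells of the lung play in the values of the lung samples was not tested.

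Over the 398 sites, mean methylation was 73.6, 74.7 and 74.3% in the TVI metastases, 61.6, 61.2 and 61.6% in the MFP metastases and 58.6 and 59.1% in the primary tumors. The 3 groups did not overlap. TVI metastases averaged 74.2% ± 0.567 (SD, n = 3), MFP metastases 61.5% ± 0.218 (SD, n = 3) and primary tumors 58.9% ± 0.375 (SD, n = 2). TVI metastases were thus 15.3 points above primary tumors and 12.7 points above MFP metastases, and MFP metastases were 2.59 points above primary tumors. The steps were unequal: that between MFP and TVI metastases was the larger, and TVI metastases as a group stood apart. Over the whole table the means of the same groups were 68.6% ± 0.0921, 67.4% ± 0.0396 and 66.7% ± 0.223. The small MFP step depended on how sites were weighted and scaled, at 1.54 points after quantile normalization and 1.28 points as the mean of region means. Weighting regions equally also gave a smaller TVI difference of 8.22 points from primary tumors and 6.94 points from MFP metastases.

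**Figure D1:**
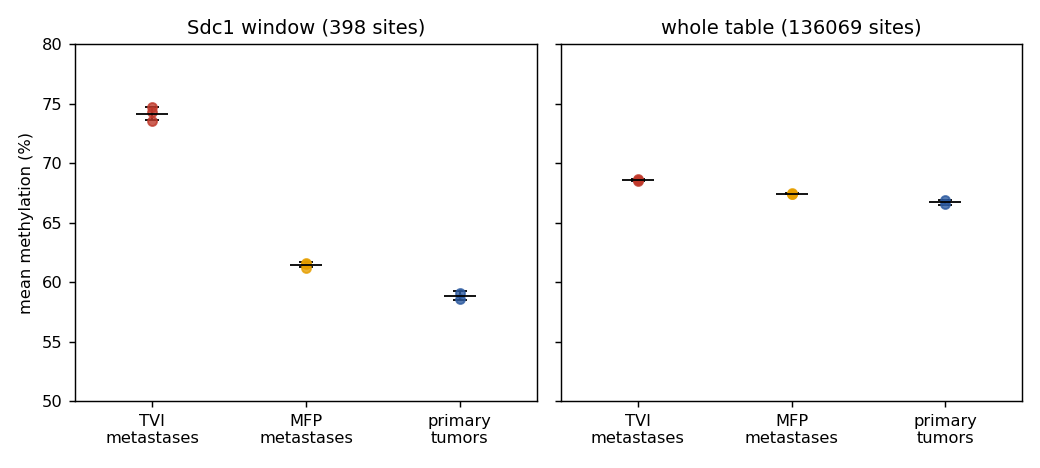
Mean methylation (percent, y axis starting above 0) in each of the 8 samples, with 1 point a sample and a bar at the group mean, over the 398 window sites and over the whole table. In the window the TVI metastases sit at 73.6 to 74.7%, the MFP metastases at 61.2 to 61.6% and the primary tumors at 58.6 and 59.1%, while over the table the group means lie between 66.7 and 68.6%.

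In TVI metastases sites of the low and middle ranges were fewer, and highly methylated sites more numerous, than in the other groups. These shares do not follow single sites from range to range. By group means, 108 window sites were at 20% or less in primary tumors. Of these, 7 were at 80% or more in TVI metastases, against 38 of 31106 in the table. Sites at 20% or less made up 16.6% ± 0.665 of the window in TVI metastases, 24.3% ± 0.384 in MFP metastases and 26.5% ± 0.888 in primary tumors. Sites from 35 to 65% made up 5.78% ± 0.665, 8.88% ± 0.290 and 11.4% ± 0.888 of the window in the same groups. Sites at 80% or more made up 68.3% ± 1.10 in TVI metastases, 49.9% ± 0.145 in MFP metastases and 45.1% ± 0.178 in primary tumors, each group clear of the next. In the whole table that last share was 63.5% in TVI metastases, 62.0% in MFP metastases and 60.8% in primary tumors, so the window held relatively few highly methylated sites in primary tumors and relatively many in TVI metastases.

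At the level of single sites, limma with a moderated test on fractions, adjusted over all 135914 varying sites of the table by the Benjamini-Hochberg method with a threshold of 0.05, called 202 window sites higher and 3 lower in TVI metastases than in primary tumors. Over the table, 11.4% of sites were called higher and 5.24% lower in that comparison, and since it chose the window the counts are given as a description. TVI metastases were called higher than MFP metastases at 179 window sites and lower at 6, against 10.4% and 6.53% of the table. All metastases together were called higher than primary tumors at 132 window sites and lower at 0, against 5.12% and 1.62% of the table. In that comparison 206 sites were higher and 5 lower at an unadjusted limma p under 0.05. It weighed both metastasis group means equally, so TVI metastases alone could carry a call. Site 8783262, for example, was called higher in it with an MFP difference from primary tumors of -3.23 points. Without 1 tumor the 132 calls became 68 (primary tumor 1 left out) or 86 (primary tumor 2 left out), and without TVI metastasis 1 the 0 lower calls became 1. For MFP metastases against primary tumors limma called 0 window sites higher and 0 lower, against 0.0427% and 0.00368% of the table. At an unadjusted limma p under 0.05 there were 63 such sites, 58 higher and 5 lower, and the lowest adjusted p was 0.0641. The MFP step is therefore seen in the averages of many sites and not in a called site, though 3 sites were called higher without a variance trend and 10 when sites of small spread were left out. After quantile normalization the shares of the table called higher and lower were nearly even in 3 of the comparisons: 7.41% and 7.13% for TVI metastases against primary tumors, 8.49% and 8.11% for TVI against MFP metastases, and 2.39% and 2.52% for all metastases against primary tumors. For MFP metastases against primary tumors they were 0.0155% and 0.00515%. In the window the same setting called 170 sites higher and 6 lower in TVI metastases than in primary tumors, 163 higher and 6 lower in TVI than in MFP metastases, and 96 higher and 0 lower in all metastases than in primary tumors, so most calls there were still on the higher side. The 3 lower calls of TVI metastases against primary tumors became 1 without TVI metastasis 2 or 3 or without any single MFP metastasis, and 0 without primary tumor 1. The 6 lower calls against MFP metastases became 2 without TVI metastasis 2 and 3 without MFP metastasis 1 or 3.

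Sites at most 500 bp apart were joined, which gave 16 regions in the window, numbered here along the chromosome. Region 1 (8776021 to 8777122, 7 sites), before the assumed start of Sdc1, was methylated throughout, at 96.2% in TVI metastases, 95.1% in MFP metastases and 95.0% in primary tumors. Region 2 (8777680 to 8777886, 13 sites) ends at the gap. Its level was 21.3, 25.2 and 21.9% in the TVI metastases, against 10.7, 10.8 and 12.5% in the MFP metastases and 12.9 and 11.1% in the primary tumors. Only the TVI metastases stood apart here, and 10 of the 13 sites were called higher in TVI than in MFP metastases. At position 8777704 in region 2 the TVI metastases had 54.8, 39.5 and 53.8%, the MFP metastases 15.5, 23.9 and 19.3% and the primary tumors 22.1 and 15.3%. Region 3 (8778805 to 8779089, 23 sites), just after the gap, was the least methylated stretch of the window, and it stayed so in every sample. It measured 1.26% in TVI metastases, 1.01% in MFP metastases and 1.35% in primary tumors, and the highest single value in any sample was 7.32%. No site of region 3 was called in any of the 4 comparisons. Region 4 (8779895 to 8780648, 15 sites) measured 4.62% in TVI metastases, 2.12% in MFP metastases and 1.36% in primary tumors.

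Regions 5, 6 and 7, which under the assumed placement lie within Sdc1, followed, and here the differences were wide. Region 5 (8781817 to 8784849, 40 sites) had 79.5, 81.4 and 80.7% in the TVI metastases, 53.8, 54.1 and 54.0% in the MFP metastases and 48.5 and 52.0% in the primary tumors. TVI metastases lay 30.3 points above primary tumors, the widest region difference in the window, and 37 of its 40 sites were called higher in TVI than in MFP metastases. Region 6 (8785547 to 8790549, 56 sites) had 87.0, 87.4 and 87.2% in the TVI metastases, 67.8, 65.8 and 66.7% in the MFP metastases and 58.6 and 60.8% in the primary tumors. Its MFP difference from primary tumors of 7.11 points was the widest of the 16 regions, and it held 30 of the 81 sites that carried the full order of groups. Region 7 (8791882 to 8795990, 55 sites) had 72.6, 74.9 and 74.97% in the TVI metastases, 53.4, 53.4 and 53.0% in the MFP metastases and 48.8 and 47.0% in the primary tumors. Without the adjacent regions 5 and 6 the window means differed by 11.0 points between TVI metastases and primary tumors. Between MFP metastases and primary tumors the difference was then 1.61 points.

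**Figure D2:**
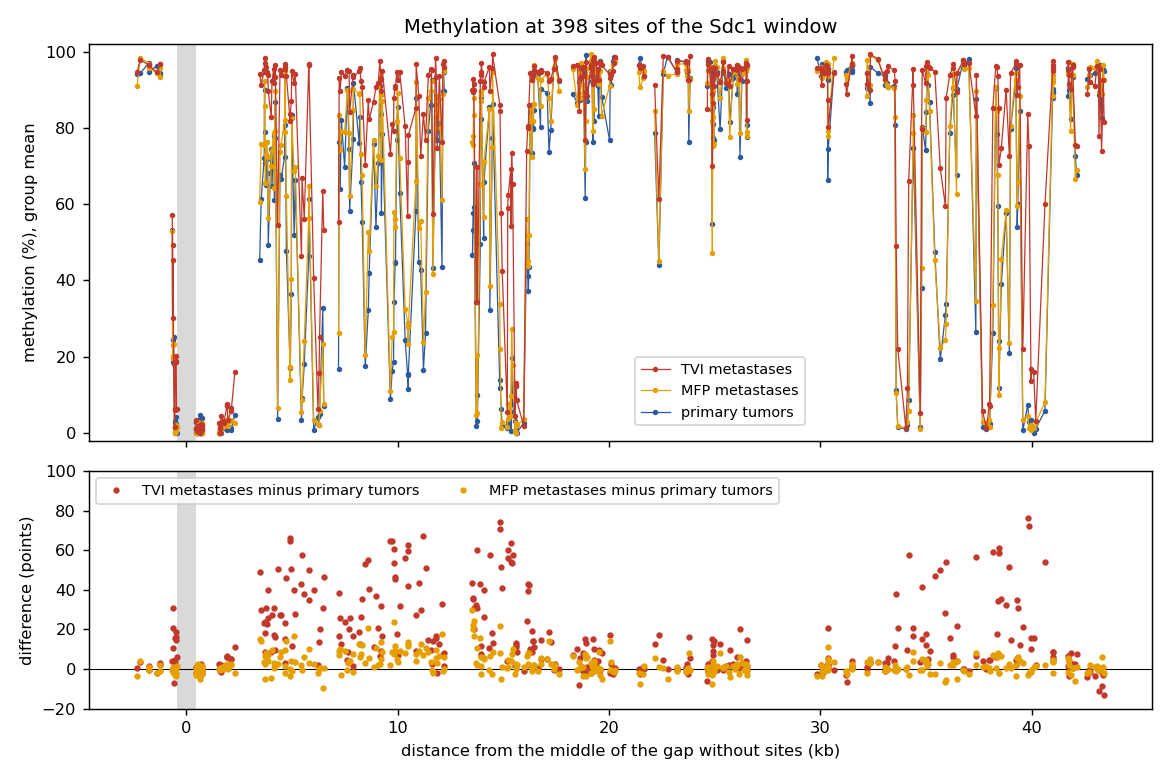
Mean methylation of each group at the 398 sites (upper panel, percent) and difference of each metastasis group from primary tumors (lower panel, points), against distance in kb from the middle of the gap without sites, which is shaded. The sites just after the gap stay near 0% in all groups, and the differences of TVI metastases reach 76.2 points, in a block that begins after the gap and in another farther along, with small differences between the blocks.

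Between the blocks of large gain lay regions 8 to 13 (8796629 to 8809836), all highly methylated. The lowest group mean of a region among them was 88.6%, in primary tumors at region 11 (8802994 to 8804864). Region 8 (8796629 to 8798608, 31 sites) had 94.0% in TVI metastases, 91.9% in MFP metastases and 90.1% in primary tumors. TVI metastases differed from primary tumors by -0.682 to 4.48 points in these 6 regions. Region 14 (8810523 to 8819361, 71 sites), which under the assumed placement lies after the end of Sdc1, again showed a wide TVI difference. It had 73.6, 75.8 and 74.9% in the TVI metastases, 56.9, 56.3 and 57.3% in the MFP metastases and 54.6 and 56.3% in the primary tumors. TVI metastases lay 19.3 points above primary tumors, while MFP metastases lay 1.38 points above them, the lowest MFP metastasis next to the higher tumor at 56.3%. Region 15 (8820051 to 8820456, 9 sites) was methylated in all groups, at 90.1% in TVI metastases, 87.3% in MFP metastases and 86.8% in primary tumors. The last region, region 16 (8820966 to 8821760, 11 sites), ran the other way. It had 89.98, 88.0 and 89.6% in the TVI metastases, 94.1, 93.4 and 94.1% in the MFP metastases and 93.2 and 93.4% in the primary tumors, and 3 of the 6 sites called lower in TVI than in MFP metastases were in it.

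**Figure D3:**
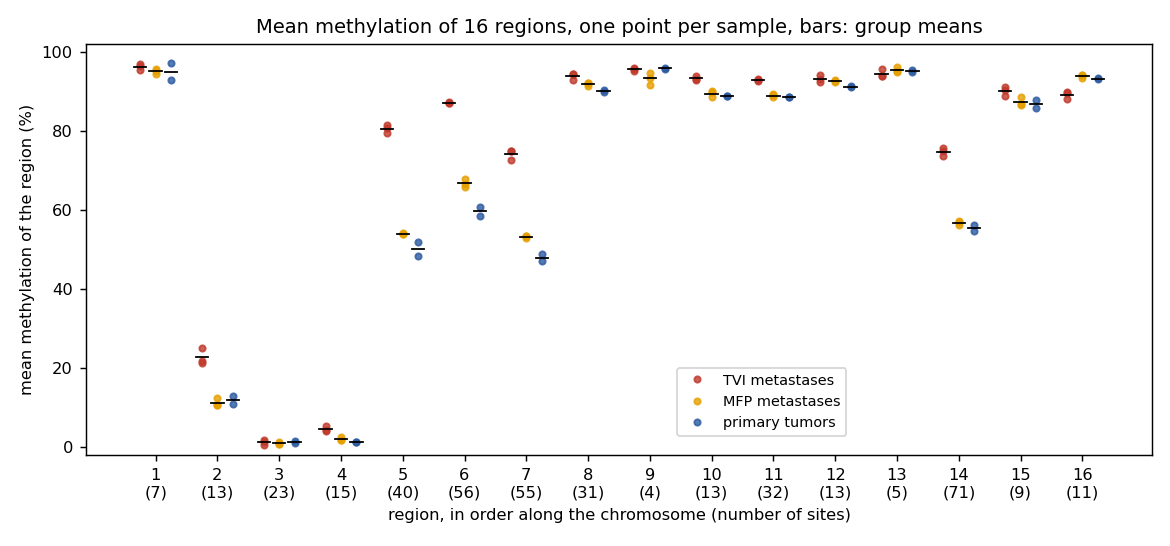
Mean methylation (percent) of the 16 regions of the window in order along the chromosome, with 1 point for each of the 8 samples. Regions 5, 6, 7 and 14 show the TVI metastases well above the MFP metastases and the primary tumors, region 3 lies near 0% in all samples, and region 16 has the TVI metastases lowest.

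Of the 16 region means, 6 carried the full order of TVI metastases above MFP metastases above primary tumors (regions 4, 5, 6, 7, 8 and 14), against 18.1% of the 3083 regions of the table, and 0 carried the opposite order, against 0.389%. The TVI metastases lay above the other 5 samples in 10 regions, against 46.5% of the table, and below them in 1, against 11.4%. The MFP metastases lay above both tumors in 8 regions, against 36.8% of the table, and below both in 1, region 9 (8799746 to 8799982), against 4.87%. TVI and MFP metastases lay on opposite sides of both tumors in 0 regions with TVI above, against 2.43% of the table, and in 1 with TVI below, region 16, against 3.92%.

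By assumed place, the 225 sites within the span of Sdc1 had 69.6% ± 0.586 in TVI metastases, 54.2% ± 0.201 in MFP metastases and 50.2% ± 0.558 in primary tumors. The 153 sites after it had 84.2% ± 0.476, 74.9% ± 0.345 and 74.0% ± 0.404 in the same groups. The 20 sites before it had 48.5% ± 1.57 in TVI metastases, 40.6% ± 0.823 in MFP metastases and 41.0% ± 1.90 in primary tumors. The MFP metastases lay 3.98 points above the primary tumors within the assumed gene and overlapped them before it.

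Regions 5, 6, 7 and 14, picked for the largest TVI differences from primary tumors, together held 222 sites, 55.8% of the window. They carried 168 of the 202 sites called higher in TVI metastases than in primary tumors and 153 of the 179 called higher in TVI than in MFP metastases. At 39 window sites TVI metastases exceeded primary tumors by at least 50 points, against 420 of the 136069 sites of the table. All 39 lay in these regions. Since the regions were picked by that same difference, these counts follow in part from the choice. The largest difference was at position 8818150 in region 14, with 76.1, 87.7 and 86.8% in the TVI metastases, 3.5, 3.2 and 6.9% in the MFP metastases and 11.3 and 3.4% in the primary tumors. At 8818204 the TVI metastases had 71.4, 80.9 and 73.6%, the MFP metastases 1.9, 1.6 and 0.0% and the primary tumors 2.6 and 3.3%. These 2 sites were near 0% in MFP metastases and in tumors alike, and mostly methylated in each TVI metastasis.

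Sites 8783262 in region 5 and 8793177 in region 7 show the 2 forms of the gain. At 8783262 the TVI metastases had 76.8, 84.6 and 83.7%, the MFP metastases 12.7, 14.1 and 14.5% and the primary tumors 18.3 and 15.7%, so that MFP metastases lay below the tumors. At 8793177 the TVI metastases had 76.8, 89.4 and 91.8%, the MFP metastases 41.9, 25.4 and 33.8% and the primary tumors 7.8 and 15.9%. The neighboring site 8793187 had 76.7, 89.1 and 87.6% in the TVI metastases, 26.9, 19.4 and 19.7% in the MFP metastases and 16.3 and 11.4% in the primary tumors. The groups at 8793177 and at 8793187 were ordered and clear of each other, with MFP metastases at the first of them 21.8 points above the tumors. Site 8791882, the first of region 7, had the widest MFP difference of the window, 29.8 points, at 86.7, 93.8 and 89.5% in the TVI metastases, 72, 78.3 and 78.7% in the MFP metastases and 52.1 and 41.0% in the primary tumors. At 8791937 and 8788168 the MFP metastases lay 24.2 and 23.8 points above the primary tumors. None of these MFP differences passed the adjusted threshold.

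Among falls, the widest between TVI metastases and primary tumors was 13.2 points, at 8821760, the last site of the window, with 89.4, 79.2 and 76.2% in the TVI metastases, 94.5, 89.9 and 93.7% in the MFP metastases and 93.8 and 95.9% in the primary tumors. At 8821641 the TVI metastases had 72.5, 73.4 and 75.7%, the MFP metastases 91.3, 87.1 and 88.4% and the primary tumors 86.5 and 78.8%. Both sites lie in region 16, and both were called lower in TVI than in MFP metastases. At 8821518, also in region 16, the TVI metastases had 78.5, 71.8 and 83.0%, the MFP metastases 90.2, 90.8 and 86.9% and the primary tumors 87.3 and 90.2%. Outside region 16, the widest fall of TVI against MFP metastases was at 8796940 in region 8, with 80, 87.9 and 85.0% in the TVI metastases, 92.4, 98.8 and 95.3% in the MFP metastases and 92.2 and 92.0% in the primary tumors. Falls of MFP metastases against primary tumors were not called. The widest, 9.41 points, was at 8784803, with 57.8, 70 and 62.9% in the TVI metastases, 24.4, 24.0 and 21.4% in the MFP metastases and 30.6 and 34.7% in the primary tumors. At 8803229 in region 11 the TVI metastases had 67.8, 70.9 and 71.3%, the MFP metastases 47.4, 45.6 and 48.7% and the primary tumors 51.5 and 58.1%. At both of these sites the MFP metastases were lowest and the TVI metastases highest, so that the order of groups was not the stepwise one.

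The full order of groups, every TVI metastasis above every MFP metastasis and every MFP metastasis above both tumors, was present at 81 window sites (20.4%), against 2.54% of the sites of the table. The opposite order was present at 1 window site, against 0.551% of the table, and at 2 without MFP metastasis 1 or 3 without primary tumor 1. Every TVI metastasis exceeded the other 5 samples at 217 window sites, against 14.4% of the table, and lay below them at 7, against 7.4%. Every MFP metastasis exceeded both tumors at 108 sites, against 14.5% of the table, and lay below them at 22, against 8.11%. TVI and MFP metastases lay on opposite sides of both tumors at 11 sites with TVI above, against 1.35% of the table, and at 3 with TVI below, against 1.33%. Most window sites with a clear order thus had the TVI metastases on top. At the 81 ordered sites the medians were 90.7% in TVI metastases, 68.9% in MFP metastases and 57.6% in primary tumors. The median step was 15.3 points between TVI and MFP metastases and 8.13 points between MFP metastases and primary tumors, and the MFP step was the larger at 15 of the 81 sites.

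Among the ordered sites there were 6 runs of at least 3 neighbors. In the run of 6 sites at 8788084 to 8788301, the TVI metastases had 86.0, 87.6 and 88.5%, the MFP metastases 48.9, 50.5 and 51.3% and the primary tumors 38.3 and 40.1%. Here the TVI step was 37.1 points and the MFP step 11.0 points. In the run of 4 sites at 8791882 to 8791937, the TVI metastases had 89.8, 92.0 and 89.8%, the MFP metastases 75.8, 79.9 and 79.2% and the primary tumors 58.4 and 49.9%. This was the run with the larger MFP step, 24.1 points against a TVI step of 12.2 points. All 6 runs lay in regions 6 and 7.

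A further pattern was methylation in TVI metastases at sites of low methylation in primary tumors. Of 89 window sites at 10% or less in primary tumors, 15 were at 50% or more in TVI metastases. The share of the table at that limit was not counted. Of 108 window sites at 20% or less in primary tumors, 31 were at 50% or more in TVI metastases (28.7%), against 580 of 31106 in the table (1.86%), and 0 were at 50% or more in MFP metastases. There were 7 runs of at least 3 neighboring sites at 20% or less in MFP metastases. In the run of 7 sites at 8793243 to 8793704 the TVI metastases had 44.4, 51.9 and 53.8%, the MFP metastases 5.01, 3.86 and 4.27% and the primary tumors 3.22 and 2.58%. In the run of 8 sites at 8817915 to 8818963 the TVI metastases had 33.6, 37.6 and 37.6%, the MFP metastases 3.66, 2.38 and 2.95% and the primary tumors 2.88 and 2.78%. Both runs were low in every sample outside the TVI group. The longest run held 46 sites at 8777794 to 8780648 around the gap. It averaged 4.23% ± 1.15 in TVI metastases, against 1.37% ± 0.279 in MFP metastases and 1.45% ± 0.193 in primary tumors. Its single sites had means of up to 20.2% in TVI metastases. In this run 10 sites were called higher in TVI than in MFP metastases, against 10.4% of the table. Low-methylated stretches thus differed among themselves, from 4.23 to 50.05% in TVI metastases.

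The size of the TVI difference varied with the level of a site. Sites were classed by their level in MFP metastases, which the difference between TVI metastases and primary tumors does not contain. For the 34 window sites at 10 to 40%, the median TVI difference from primary tumors was 56.5 points, against 8.29 points for the sites of the table in the same class. For the 43 window sites at 40 to 70% it was 35.4 points, against 10.3 in the table. For the 86 window sites under 10% it was 4.45 points, against 0.388 in the table, and for the 135 sites at 90% or more it was 1.10 points, against 0.418. In every class the window lay above the table, most widely at intermediate levels. The window was chosen for its gain in these same samples, so this follows in part from the choice. The window sites at 90% or more also had little room to rise, at 93.7% in primary tumors.

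**Figure D4:**
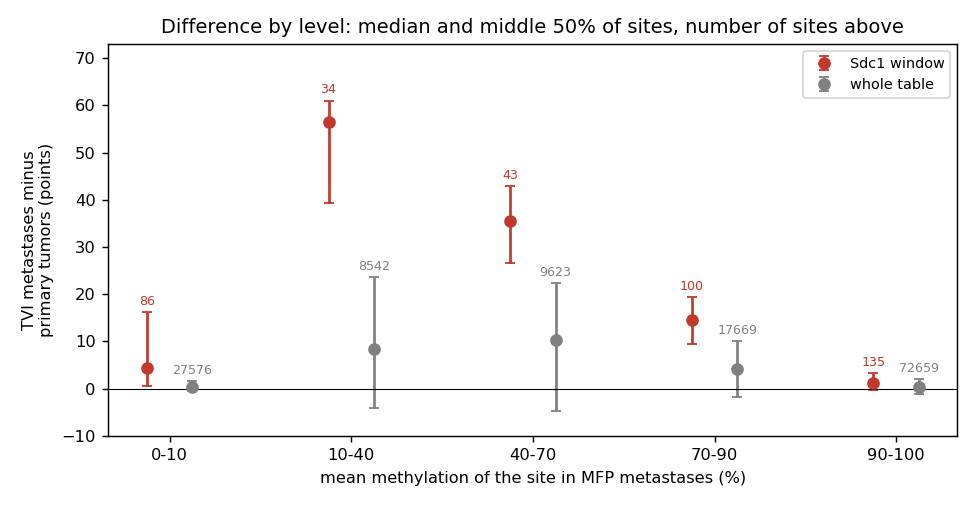
Median difference between TVI metastases and primary tumors (points), in the window and over the whole table. Sites are classed by their mean level in MFP metastases (percent). Bars run to the quartiles, with the number of sites above each. The 34 window sites at 10 to 40% have a median of 56.5 points, against 8.29 points in the table.

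For likeness to the window, the deviations of the 8 samples from their mean were compared with those of 2566 regions elsewhere in the table with at least 10 sites, as the root mean square difference in points, whose median was 6.27. The nearest was a region of chromosome 11 at 5756013 to 5757742 (25 sites, 0.438 points), with 71.6% in TVI metastases, 59.0% in MFP metastases and 55.6% in primary tumors. The next, on chromosome 10 at 76572202 to 76577984 (76 sites, 0.646 points), had 85.8% in TVI metastases, 74.2% in MFP metastases and 71.9% in primary tumors. The other 3 of the closest 5 lay on chromosome 19, and from 0.704 to 0.725 points away. All 5 share the samples with the window and repeat its unequal steps, so the pattern is not limited to this locus. No gene name was given to these regions, since the build of the coordinates was not settled.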

How the data were processed

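Bisulfite sequencing was done on 8 samples; per the labels' protocols, the extraction kit was ZR-Duet DNA/RNA miniprep and conversion used EZ-DNA Methylation Gold. Trimmomatic, Bismark and mm10 appear in the submitters' processing notes, without versions. The authors deposited beta values, each a fraction from 0 to 1, without counts or coverage, so no interval for counting error could be given. Any coverage filter is not given in the sources used here. All 8 value columns matched a labelled sample.

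Fractions at 135914 varying sites were fitted with limma 3.58.1 (R 4.3.3), with 1 mean per group, a variance trend and Benjamini-Hochberg adjustment over all sites (two-sided, threshold 0.05). The procedure was tested on simulated data. Window means, regions (sites at most 500 bp apart, at least 3 sites) and orders of groups are descriptions. Named sites are, in each of the 4 comparisons, among the 3 largest rises and 3 largest falls; sites in runs or beside the gap were chosen after their values were seen. Promoters were matched on CG positions with at least 90% of sites on a CG. The intended minimum of 5 sites gave offsets of up to 68450796 bp, so 8 was used, chosen after seeing the data. Promoter sequences were at hand for 26 of the 40 listed genes of the syndecan pathway. None of these could be placed with that minimum, and the list was not analysed. The window, lists and tests were chosen with earlier results of these data known.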

Additional observations from a re-analysis of the deposited data

Results flagged for a closer look

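At 185 sites of the Sdc1 window the difference from primary tumors was not the same in TVI and MFP metastases, by the limma test of TVI minus MFP with Benjamini-Hochberg adjustment over all sites: TVI metastases were higher at 179 and lower at 6. This contrast was part of how the window was chosen, so the count is a description.

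At 11 window sites every TVI metastasis lay above both primary tumors and every MFP metastasis below them, against 1.35% of the sites of the table. At 3 window sites every TVI metastasis lay below both tumors and every MFP metastasis above them, against 1.33% of the table. Neither opposite movement was tested as such. Region 16 (8820966 to 8821760) showed the second form as a region mean: TVI metastases had 89.2% ± 1.05, MFP metastases 93.9% ± 0.414 and primary tumors 93.3% ± 0.132, with a TVI difference from tumors of -4.05 points, not tested. This form was present in 3.92% of the regions of the table. Groups of 2 or 3 samples were not screened for single outlying samples.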

How the results depend on the processing

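All 4 window differences kept their sign under the settings run. In points, for all metastases, MFP metastases and TVI metastases minus primary tumors and for TVI minus MFP metastases, they were 7.24, 1.54, 12.9 and 11.4 after quantile normalization, 9.95, 3.91, 15.99 and 12.1 as medians over sites, and 4.75, 1.28, 8.22 and 6.94 as means of region means. Over the assumed span of Sdc1 alone they were 11.7, 3.98, 19.4 and 15.5. Without regions 5 and 6 they were 6.32, 1.61, 11.0 and 9.43. Both settings were added after seeing the data. Leaving out 1 sample at a time gave 8.68 to 9.21, 2.33 to 2.86, 15.02 to 15.6 and 12.4 to 13.0. Sites called higher with 1 sample left out numbered 68 to 125 for all metastases, 165 to 203 for TVI metastases against tumors and 152 to 180 for TVI against MFP metastases, and 0 for MFP metastases against tumors. Sites called lower numbered 0 to 1 for all metastases, 0 to 2 for TVI metastases against tumors and 2 to 6 for TVI against MFP metastases. Most other settings also changed some counts of calls. Sites higher in MFP metastases than in tumors numbered 3 without a variance trend and 10 without sites of an SD under 0.02. Sites lower in TVI metastases than in tumors numbered 6 after quantile normalization, 1 on the logit scale and 1 with the replicate block. Higher calls are given for all metastases, TVI metastases against tumors and TVI against MFP metastases. They were 123, 193 and 185 on the logit scale. Without a variance trend they were 132, 193 and 171, and without sites of an SD under 0.02 they were 145, 203 and 177. The labels give no pairing, so the sample numbers were not taken as pairs. Deviations of same-numbered samples from their group means correlated at -0.0037 to 0.0172. In groups this small such values cannot exclude a pairing. With the number as a replicate block, 101 sites were higher in all metastases, 187 in TVI metastases against tumors and 169 in TVI against MFP metastases. Sites in the opposite order numbered 1 to 3 with 1 sample left out and 0 within the assumed span. Ordered sites numbered 82 to 119 with 1 sample left out. Leaving out a sample can only keep or raise both counts, so it is no check on them. After quantile normalization the 81 ordered sites became 54, and the site in the opposite order remained 1. Within the assumed span there were 64 ordered sites. Joining sites at 250 or 1000 bp gave 36 or 5 regions in place of 16. Of 576 region values under the alternatives 17 changed sign, and of 216 named-site values 0 did. Depth is unknown, so its effect on single-site values was not measured.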

Other observations

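In the window the most closely spaced sites, which included all of regions 2 and 3 beside the gap, had the lowest level. Sites with fewer neighbors were alike in level. The 65 sites with 10 to 22 other sites within 250 bp averaged 39.7% in TVI metastases, 30.4% in MFP metastases and 29.8% in primary tumors, and their median TVI difference from tumors was 2.05 points. The 222 sites with 4 to 9 others averaged 80.9%, 67.7% and 64.3% in the same groups, with a median TVI difference of 10.5 points. The 111 sites with at most 3 others averaged 80.8% in TVI metastases, 67.2% in MFP metastases and 64.96% in primary tumors, with a median TVI difference of 5.25 points. In the table the medians of these density classes were 0.402, 0.917 and 1.17 points, with the densest class there running from 10 to 65 other sites.

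The promoter sites of Rhob, outside the window, were nearly unmethylated in each of the 8 samples, with sample means over 17 sites of 0.891 to 1.94%. The spread of a window site within a group was like that of the table, with a median SD of 2.004 points in TVI metastases, 2.21 in MFP metastases and 1.94 in primary tumors, against 1.78, 1.93 and 1.61 points over all sites.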
